A study of Mus musculus with 11 samples.

Results

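The proteasome genes were taken as the genes whose symbol begins with Psma to Psmg followed by a digit and that had at least 10 counts in at least 3 of the 11 RNAseq libraries. Of the 24849 genes in the count table, 51 matched the name and 49 met the count rule. Both genes left out are proteasome subunits of other tissues: *Psma8*, of germ cells, had no count in any library, and *Psmb11*, of the thymus, was at or under 3 counts in every library. Of the 49 genes, 46 encode subunits, assembly chaperones, activators or an inhibitor of the proteasome, and 3 were caught by their symbol alone and are described apart.

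The proteasome is the protease that degrades ubiquitinated proteins in the cytosol and nucleus, including those that the endoplasmic reticulum sends out for disposal. Its core particle is a barrel of alpha rings, which form the gate, around beta rings, which carry the cutting sites. A regulatory particle of ATPases, which unfold the substrate, and non-ATPase subunits, which bind and remove ubiquitin, caps the core. In immune cells and in cells exposed to interferon, the cutting subunits encoded by *Psmb5*, *Psmb6* and *Psmb7* are replaced by those of *Psmb8*, *Psmb9* and *Psmb10*, which form the immunoproteasome and favour peptides for MHC class I.

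AML12 is a mouse hepatocyte cell line, and its labels list 3 genotypes, which were compared pairwise. The 4 KO libraries are labelled TXNDC5 Knockdown and come from cells selected with puromycin after Cas9 cutting in *Txndc5* and insertion of a resistance gene. The 3 WT libraries (5-6, 7 and 8) are the line without these changes. The 4 KI libraries, labelled TXNDC5 Knockin, come from cells with an insertion at the ROSA26 locus that was designed to overexpress TXNDC5. No time, dose or treatment is given, nor the number of clones behind a line, and nothing states that libraries of a group came from separate cultures, so p-values measure the spread between these libraries only, and a line and its selection cannot be told apart from the genotype.

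Total counts were between 29840366 and 38422243 per library, of which 0.556% to 0.846% fell on the proteasome genes. Levels are given as CPM, a gene's counts relative to the library's total after edgeR's TMM scaling. *Txndc5*, the targeted gene, was at 10.25 ± 1.90 CPM in KO (SD, n = 4), 142.9 ± 4.4 in WT (SD, n = 3) and 169.0 ± 10.2 in KI cells (SD, n = 4). It fell in KO against WT (log2 fold change -3.81, adjusted p = 4.09e-08, edgeR). In KI against WT the log2 fold change of 0.24 did not pass the test (adjusted p = 0.136, edgeR), although every KI library lay above every WT library, so the label of the KI libraries was not established by this test. All 9 hepatocyte markers looked at were expressed, with summed levels of 8338 to 10310 CPM in the KO, 5070 to 6885 in the WT and 7235 to 8742 in the KI libraries. They did not move together: *Alb*, albumin, was at a mean of 4115 CPM in KO, 512.7 in WT and 245.8 in KI cells, and *Serpina1a*, a secreted protease inhibitor, at 0.595, 8.04 and 11.5. The summed level of 4 biliary markers was 1086 to 1221 CPM in the KO, 861.0 to 1091 in the WT and 709.6 to 973.8 in the KI libraries, within which *Krt7*, a keratin of bile ducts, was at a mean of 16.99, 177.3 and 117.6 CPM. The summed level of 5 leukocyte markers was 1.32 to 2.09 CPM in the KO, 6.64 to 9.20 in the WT and 2.52 to 5.66 in the KI libraries, with *Adgre1* at or under 3 counts in every library.

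The proteasome genes did not move as one. In bulk RNA, fewer cells that express a gene and less of its RNA per cell cannot be told apart. In KO against WT, 26 of 49 passed edgeR's quasi-likelihood test at an adjusted p under 0.05 (53.1%), 15 higher and 11 lower, where 55.1% of all 13359 genes tested passed, 26.7% higher and 28.4% lower. Their median log2 fold change was 0.20, beside -0.03 over all genes tested. In KI against WT, 27 passed (55.1%), 15 higher and 12 lower, against 42.3% of all 13534 genes, with a median of 0.01 beside -0.02. In KO against KI, 28 passed (57.1%), 18 higher and 10 lower, against 54.0% of all genes, with a median of 0.12 beside 0.00. The share called was thus near the background in KO against WT and KO against KI and above it in KI against WT, and the comparisons share libraries. Groups did not overlap for 23 members in KO against WT, 16 with KO higher and 7 lower (all genes 55.3%, of which 28.2% higher and 27.1% lower), for 21 in KI against WT, 13 higher and 8 lower (44.7%, 23.4% and 21.3%), and for 21 in KO against KI, 14 higher and 7 lower (48.6%, 24.2% and 24.4%).

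The libraries' scale bears on the direction. When libraries were scaled by their totals alone, the median of all genes in KO against WT moved from -0.03 to 0.38, that of the proteasome genes to 0.62, and 29 proteasome genes passed, 27 of them higher. In KI against WT the corresponding medians were 0.30 and 0.34, with 21 of 27 calls higher. The share of all genes is not set beside that count. The summed level of the 49 genes was 7142 ± 687 CPM in KO (SD, n = 4), 7390 ± 1425 in WT (SD, n = 3) and 6523 ± 467 in KI cells (SD, n = 4), and the groups overlapped in all 3 pairs.

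**Figure D1:**
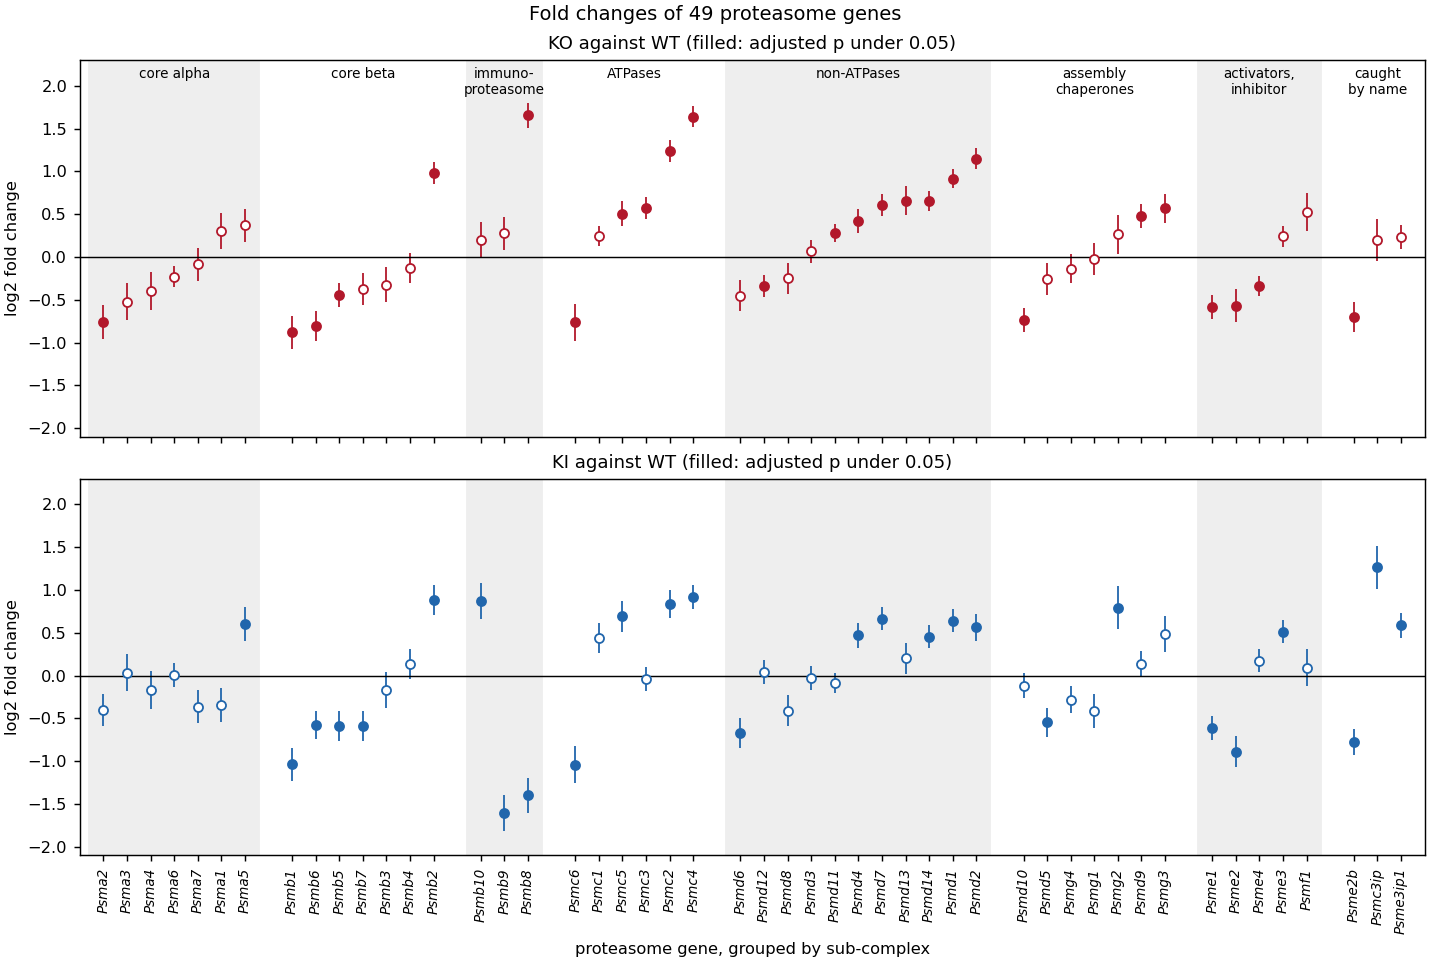
Log2 fold change (vertical axis) of each of the 49 proteasome genes (horizontal axis, grouped by sub-complex) in KO against WT (top) and KI against WT (bottom). Points are edgeR estimates, bars their standard errors and filled points have an adjusted p under 0.05, most ATPases and non-ATPases lie above 0 and most core subunits below it, where the core median moved above 0 when libraries were scaled by their totals, and *Psmb8* and *Psmb9* have the lowest values of the lower panel.

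The calls in the regulatory particle were mostly higher against WT and those in the core mostly lower. Of the 17 regulatory particle genes, 11 rose and 2 fell in KO against WT, with a median log2 fold change of 0.50, whereas of the 14 core genes 1 rose and 4 fell, with a median of -0.35. In KI against WT, 8 regulatory particle genes rose and 2 fell (median 0.44), and 2 core genes rose and 4 fell (median -0.26). Among all genes tested, 26.7% were higher and 28.4% lower in KO against WT, and 21.2% and 21.0% in KI against WT. Rises thus took 64.7% and 47.1% of the regulatory particle genes and 7.14% and 14.3% of the core genes. The share of core genes that fell in KO against WT was near that of all genes. Scaling by library totals alone turned the core medians to 0.09 and 0.10, where the difference from the median of all genes was -0.28 and -0.20 for the core and 0.53 and 0.46 for the regulatory particle. The summed level of each particle did not separate either line from WT: the regulatory particle reached 3539 ± 246 CPM in KO (SD, n = 4), 3002 ± 461 in WT (SD, n = 3) and 2954 ± 157 in KI cells (SD, n = 4), a log2 ratio of 0.24 and -0.02 against WT, and the core 2754 ± 378, 3413 ± 895 and 2717 ± 320 CPM, with overlap with WT in each case. The regulatory particle sum was higher in every KO than in every KI library (log2 ratio 0.26). Its ATPases alone summed higher in every KO than in every WT library (log2 ratio 0.27), while its non-ATPases overlapped there. Library WT 8 decided how many core genes were called: without it 9 fell in KO against WT (median -0.53) and 9 in KI against WT (median -0.48). Of the regulatory particle genes, 12 then rose and 4 fell in KO against WT (median 0.53), and 9 rose and 3 fell in KI against WT (median 0.39). Without WT 7, 4 regulatory particle genes rose in KI against WT and 2 core genes fell (core median -0.17), and without WT 5-6, 1 core gene fell there (core median -0.08). In KO against WT the core median was -0.22 without WT 7 and -0.21 without WT 5-6.

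The ratio of core counts to regulatory particle counts within a library needs no scaling between libraries. It was 0.837, 0.762, 0.797 and 0.706 in the KO libraries 5 to 8, 1.20, 1.23 and 0.949 in WT 5-6, 7 and 8, and 0.884, 0.906, 0.844 and 1.04 in the KI libraries 5 to 8. All KO libraries lay below all WT libraries. The KI libraries overlapped the WT libraries, since KI 8 was above WT 8, and the highest KO library was just under the lowest KI library. The mean ratio was 0.776 ± 0.055 in KO (SD, n = 4), 1.12 ± 0.15 in WT (SD, n = 3) and 0.919 ± 0.086 in KI cells (SD, n = 4). No test is given for it, since it is a score over genes chosen with results of these data known.

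**Figure D2:**
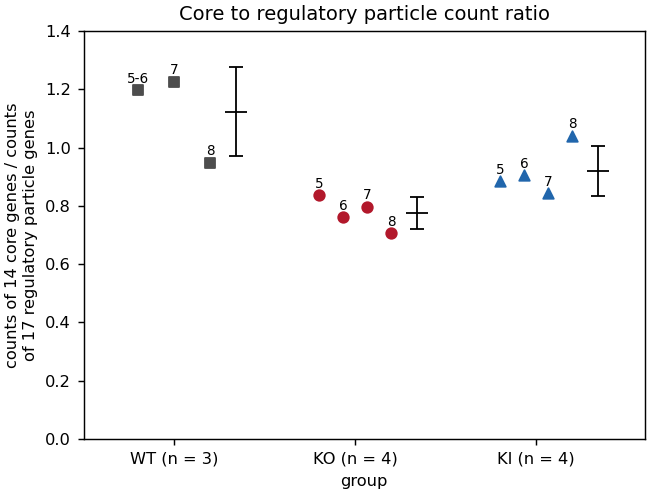
Counts of the 14 core genes divided by counts of the 17 regulatory particle genes (vertical axis) in each library (points, labelled by library number) of the WT, KO and KI groups (horizontal axis). Bars to the right of the points are means ± SD, and the 4 KO libraries, at 0.706 to 0.837, lie below the 3 WT libraries.

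Within the alpha ring, 1 of 7 genes passed the test against WT in each line (14.3%), beside 55.1% and 42.3% of all genes. In KO against KI 4 passed (57.1%), beside 54.0% of all genes. *Psma2* was the only one of 7 to pass in KO against WT. Its level was 230.0, 193.3, 195.6 and 163.2 CPM in KO 5 to 8 and 443.0, 305.8 and 233.3 in WT 5-6, 7 and 8, so the lowest WT library stood just above the highest KO library, and the log2 fold change was -0.76 (SE 0.20, adjusted p = 0.00728, edgeR). The call was lost with library totals (-0.32). In the KI libraries it was at 245.6, 264.3, 220.2 and 262.4 CPM, within the WT range but for KI 7, and the log2 fold change against WT of -0.40 did not pass (adjusted p = 0.106, edgeR).

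*Psma5* was the only alpha subunit called in KI against WT. It had 119.2, 134.6, 111.4 and 88.25 CPM in KI 5 to 8 and 102.2, 65.16 and 57.22 in the WT libraries, where WT 5-6 overlapped KI 8. The log2 fold change was 0.60 (SE 0.20, adjusted p = 0.0297, edgeR), and the call was lost under 5 of 18 alternatives, all of which left out a library. In the KO libraries *Psma5* was at 112.4, 97.93, 98.81 and 82.13 CPM, with a log2 fold change of 0.37 that did not pass (adjusted p = 0.123, edgeR) but did with library totals (0.81), without WT 5-6 and with a replicate block. The other 5 alpha genes, *Psma1*, *Psma3*, *Psma4*, *Psma6* and *Psma7*, did not pass against WT in either line. Between the edited lines, *Psma1* (log2 fold change 0.67) and *Psma7* (0.30) were higher and *Psma2* (-0.34) and *Psma3* (-0.53) lower in KO than in KI cells.

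In the beta ring, *Psmb1* and *Psmb2* moved in opposite directions in both lines. *Psmb1*, a non-catalytic beta subunit, was at 432.2, 350.2, 367.3 and 308.0 CPM in KO 5 to 8, 785.6, 745.4 and 452.6 in WT 5-6, 7 and 8, and 309.0, 337.0, 268.6 and 375.5 in KI 5 to 8. Every KO and KI library was below every WT library, and WT 8 was much closer to them than the other WT libraries. The log2 fold change was -0.88 in KO against WT (SE 0.20, adjusted p = 0.00299, edgeR) and -1.04 in KI against WT (SE 0.20, adjusted p = 0.00116, edgeR).

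*Psmb2*, another non-catalytic beta subunit, was the only core gene called higher in both lines. It was at 68.19, 76.31, 70.43 and 79.41 CPM in KO, 34.15, 33.73 and 41.99 in WT and 67.75, 79.84, 73.08 and 50.06 in KI libraries, without overlap with WT. The log2 fold change was 0.99 in KO against WT (SE 0.13, adjusted p = 9.07e-05, edgeR) and 0.89 in KI against WT (SE 0.17, adjusted p = 0.00142, edgeR). *Psmb3* and *Psmb4*, which are also without catalytic activity, did not pass in any comparison.

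The 3 constitutive cutting subunits lay lower in both lines, not all past the test. *Psmb6*, the caspase-like subunit, was at 111.5, 106.6, 100.3 and 83.62 CPM in KO, 225.4, 156.9 and 138.7 in WT and 114.6, 124.5, 105.6 and 122.1 in KI libraries, below WT without overlap in both lines. It fell with a log2 fold change of -0.81 in KO (SE 0.17, adjusted p = 0.0021, edgeR) and -0.57 in KI cells (SE 0.16, adjusted p = 0.0136, edgeR). *Psmb6* has 2 numbered entries in the table, and the larger of them held between 50.3% and 94.9% of its counts depending on the library. When only the entry with the most counts was used, the KI against WT call was lost (log2 fold change -0.79, adjusted p = 0.0657, edgeR), as it was with library totals (-0.22) and without WT 5-6.

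*Psmb5*, the chymotrypsin-like subunit, was at 85.74, 74.71, 72.80 and 66.64 CPM in KO, 111.2, 108.8 and 81.86 in WT and 65.87, 65.03, 51.86 and 84.88 in KI libraries, where WT 8 overlapped both lines. The log2 fold changes were -0.44 in KO (SE 0.14, adjusted p = 0.0211, edgeR) and -0.59 in KI cells (SE 0.17, adjusted p = 0.0154, edgeR), and with library totals they came to -0.02 and -0.25, neither past the test. Each call was also lost without WT 5-6 and without WT 7, and the KO call without KO 6, KO 7 or KO 8 as well. *Psmb7*, the trypsin-like subunit, was at 266.3, 222.2, 226.5 and 192.2 CPM in KO, 328.9, 336.3 and 201.3 in WT and 189.6, 203.0, 173.5 and 202.3 in KI libraries. It was called only in KI against WT among the comparisons with WT, at -0.59 (SE 0.18, adjusted p = 0.0172, edgeR), beside -0.37 in KO against WT (adjusted p = 0.115, edgeR), WT 8 lay within the KI range, and the call was lost with library totals and without WT 5-6, WT 7 or KI 7.

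The immunoproteasome genes gave the widest range. *Psmb8* and *Psmb9* lie near each other in the MHC region of chromosome 17, at chr17:34197721-34201454 on the plus strand and chr17:34181987-34187764 on the minus strand of GRCm38 (GENCODE), and *Psmb10* at chr8:105935735-105938444 on the minus strand. The 250 bases before the RefSeq start of each (GRCm38.p6) are shown because the 3 genes moved differently. The windows of *Psmb8* and *Psmb9* lie within the GENCODE spans of these genes, so the bases before their GENCODE starts were not searched. Each window is written along its gene's strand, with capitals for matches, on either strand, to the letters TGANNNNGC (the core of the antioxidant response element), GAAA, any 2 bases and GAAA again (the interferon-stimulated response element), TTCNNNGAA (the gamma-activated sequence) or CCAAT.
Psmb8 (chr17:34197945-34198194): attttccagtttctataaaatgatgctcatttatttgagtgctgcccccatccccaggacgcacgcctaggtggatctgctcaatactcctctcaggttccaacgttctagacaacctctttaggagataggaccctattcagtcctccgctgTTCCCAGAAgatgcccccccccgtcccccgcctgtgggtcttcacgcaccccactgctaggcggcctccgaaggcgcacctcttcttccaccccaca
Psmb9 (chr17:34187331-34187580): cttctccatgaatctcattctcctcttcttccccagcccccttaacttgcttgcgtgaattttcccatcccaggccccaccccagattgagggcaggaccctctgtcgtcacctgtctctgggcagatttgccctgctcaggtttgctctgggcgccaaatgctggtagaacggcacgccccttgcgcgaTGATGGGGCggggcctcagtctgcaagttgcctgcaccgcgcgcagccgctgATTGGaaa
Psmb10 (chr8:105938393-105938642): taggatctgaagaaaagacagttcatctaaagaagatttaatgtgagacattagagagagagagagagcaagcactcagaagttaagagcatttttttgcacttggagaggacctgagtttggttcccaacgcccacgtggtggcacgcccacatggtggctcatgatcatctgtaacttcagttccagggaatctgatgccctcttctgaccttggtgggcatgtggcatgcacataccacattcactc
The *Psmb8* window held 1 match to TTCNNNGAA that begins 97 bases before the start. The *Psmb9* window held 1 match to TGANNNNGC, 60 bases before the start, and 1 to CCAAT on the other strand, 8 bases before it, and the *Psmb10* window held none of the 4.

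*Psmb8* was ordered KO above WT above KI, with no overlap between any pair of groups. It was at 43.32, 33.31, 37.06 and 37.69 CPM in KO 5 to 8, 10.83, 12.95 and 11.61 in WT 5-6, 7 and 8, and 3.22, 4.49, 5.15 and 4.90 in KI 5 to 8. The log2 fold change was 1.66 in KO against WT (SE 0.15, adjusted p = 6.86e-06, edgeR), -1.40 in KI against WT (SE 0.20, adjusted p = 0.00016, edgeR) and 3.08 in KO against KI (SE 0.15, adjusted p = 2.7e-10, edgeR). Its value in KO against WT and that of *Psmc4* (1.64) were the highest of the 49 genes and differed by less than their standard errors. Its counts were spread over 4 numbered entries. The largest entry of a library, which was not the same one in every library, held 31.1% to 73.8% of the counts. With the entry that had the most counts over all libraries the log2 fold changes were 1.45, -2.11 and 3.58, all past the test.

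*Psmb9* separated the KI line only. It was at 20.72, 14.57, 14.22 and 13.16 CPM in KO, 15.20, 10.33 and 12.82 in WT and 4.73, 4.69, 3.01 and 4.17 in KI libraries. The KO and WT libraries overlapped (log2 fold change 0.28, SE 0.20, adjusted p = 0.252, edgeR), whereas every KI library was below both groups, at -1.61 against WT (SE 0.21, adjusted p = 7.89e-05, edgeR). With counts summed over entries this and the value of *Psmb8* were the lowest of the 49 genes in that comparison. With library totals the KO against WT value was 0.68 and passed (adjusted p = 0.0127, edgeR). In KO against KI the log2 fold change was 1.91 (SE 0.18, adjusted p = 4.48e-07, edgeR).

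*Psmb10* went the other way. It was at 47.33, 50.15, 53.89 and 43.09 CPM in KI, 36.51, 17.15 and 26.10 in WT and 34.63, 28.19, 29.80 and 30.54 in KO libraries. Every KI library was above every WT and KO library, with log2 fold changes of 0.87 in KI against WT (SE 0.21, adjusted p = 0.00494, edgeR) and -0.65 in KO against KI (SE 0.10, adjusted p = 6.1e-05, edgeR). The KO libraries lay inside the wide WT range (log2 fold change 0.20, adjusted p = 0.447, edgeR), and the value passed with library totals (0.62, adjusted p = 0.0277, edgeR) and without WT 5-6.

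**Figure D3:**
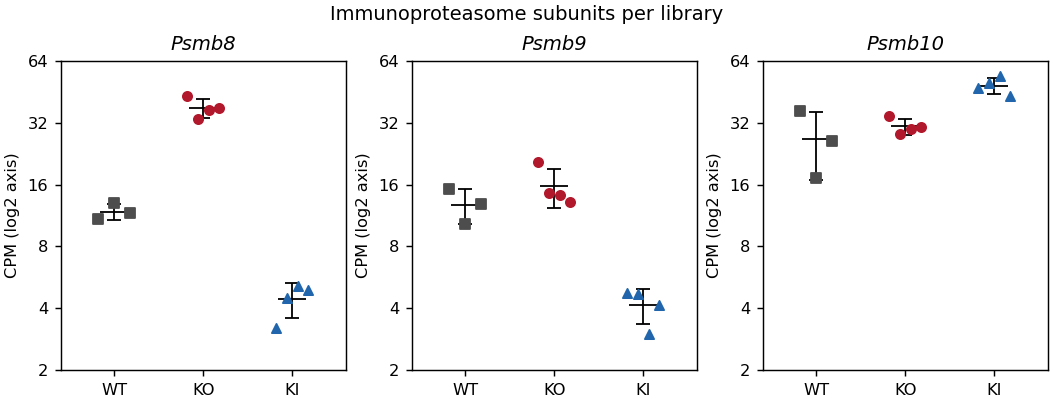
Level in CPM (vertical axis, log2 scale) of *Psmb8*, *Psmb9* and *Psmb10* in each WT, KO and KI library (points), with the mean ± SD of each group (bars). *Psmb8* separates all 3 groups, *Psmb9* is low in the 4 KI libraries, at 3.01 to 4.73 CPM, and *Psmb10* is highest in them, at 43.09 to 53.89 CPM.

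Set against the subunit that each replaces, and counted per kb of transcript within a library, the immunoproteasome genes stayed the minor form. *Psmb8* reached 28.0% ± 2.7 of *Psmb5* in KO (SD, n = 4), 6.60% ± 1.23 in WT (SD, n = 3) and 3.795% ± 1.215 in KI cells (SD, n = 4). *Psmb9* reached 9.18% ± 1.30 of *Psmb6* in KO, 4.44% ± 0.88 in WT and 2.09% ± 0.32 in KI cells, and here the KO libraries stood above the WT libraries without overlap, as *Psmb6* was lower in them. *Psmb10* reached 12.1% ± 1.3 of *Psmb7* in KO, 8.60% ± 3.64 in WT and 22.6% ± 3.6 in KI cells. These ratios do not depend on the scaling between libraries, but they rest on 1 transcript length per gene and on counts whose sharing between numbered entries is not described, and they are levels of RNA, not of assembled particles.

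Genes known to act with or upstream of the immunoproteasome were read from the same fits. Of 9 in the list, 5 rose and none fell in KO against WT, 3 rose and 3 fell in KI against WT, and 6 were higher and 1 lower in KO than in KI cells. Over all genes tested, 26.7% were higher and 28.4% lower in KO against WT, 21.2% and 21.0% in KI against WT, and 27.0% and 27.0% in KO against KI. *Tap1* and *Tap2*, the peptide transporter genes that neighbour *Psmb8* and *Psmb9*, had log2 fold changes of 0.90 and 1.17 in KO against WT and -1.59 and -0.71 in KI against WT, all past the test. *Nlrc5*, a transactivator of MHC class I genes, rose in both (2.36 and 1.68), from a low mean of 0.842 CPM in WT cells. *Irf1*, an interferon-induced transcription factor, rose in KI against WT (1.04), as *Psmb10* did, and *Irf9*, its relative in the type I interferon response, fell there (-1.17), as *Psmb8* and *Psmb9* did. *B2m*, the light chain of MHC class I, did not pass in any comparison. The part of the marker levels given above in these differences was not tested.

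The ATPase ring held the largest rises outside the immunoproteasome in KO against WT. *Psmc4* was at 187.2, 176.4, 170.0 and 180.8 CPM in KO 5 to 8, 55.91, 49.35 and 64.30 in WT 5-6, 7 and 8, and 109.7, 113.3, 112.1 and 92.48 in KI 5 to 8. All 3 groups stood apart, in the order KO, KI, WT. The log2 fold changes were 1.64 in KO against WT (SE 0.13, adjusted p = 2.52e-06, edgeR), 0.92 in KI against WT (SE 0.14, adjusted p = 0.000285, edgeR) and 0.74 in KO against KI (SE 0.09, adjusted p = 4.06e-06, edgeR). *Psmc2* had the same order without overlap, with log2 fold changes of 1.24, 0.84 and 0.43, all past the test.

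*Psmc6* was the exception among the ATPases. It was at 269.9, 211.4, 247.9 and 183.2 CPM in KO, 427.8, 467.8 and 246.0 in WT and 179.0, 177.8, 151.1 and 233.9 in KI libraries. WT 8 stood far below the other WT libraries and within the KO range. *Psmc6* fell with a log2 fold change of -0.76 in KO (SE 0.22, adjusted p = 0.0113, edgeR) and -1.04 in KI cells (SE 0.21, adjusted p = 0.00204, edgeR), and the KO call was lost with library totals (-0.32) and without WT 7. Of the other ATPases, *Psmc5* rose in both lines (0.50 and 0.69), *Psmc3* rose in KO (0.58) and not in KI cells (-0.04, adjusted p = 0.839, edgeR), and *Psmc1* did not pass (0.24 and 0.43).

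Among the 11 non-ATPase subunits, 7 rose and 1 fell in KO against WT and 5 rose and 1 fell in KI against WT. The rises took 63.6% and 45.5% of these subunits, beside 26.7% and 21.2% of all genes tested. Falls took 28.4% and 21.0% of all genes tested. *Psmd2*, a scaffold subunit that holds ubiquitin receptors, was at 418.6, 415.2, 390.8 and 410.0 CPM in KO, 186.5, 163.5 and 195.8 in WT and 302.5, 293.4, 269.4 and 208.4 in KI libraries, without overlap between groups. Its log2 fold change was 1.15 in KO against WT (SE 0.12, adjusted p = 2.16e-05, edgeR) and 0.56 in KI against WT (SE 0.16, adjusted p = 0.0119, edgeR). *Psmd1*, the other large scaffold, followed with 0.92 and 0.64, and both were also higher in KO than in KI cells (0.61 and 0.30).

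*Psmd7*, the partner of the deubiquitinase subunit, had the highest value of the non-ATPases in KI against WT. It was at 101.5, 112.9, 101.4 and 101.9 CPM in KI, 69.50, 55.44 and 73.01 in WT and 100.1, 111.5, 95.96 and 98.63 in KO libraries. It rose by a log2 fold change of 0.66 in KI (SE 0.14, adjusted p = 0.00197, edgeR) and 0.60 in KO cells (SE 0.13, adjusted p = 0.00213, edgeR), and the edited lines overlapped. *Psmd14*, the deubiquitinase itself, rose by 0.66 in KO and 0.45 in KI cells, and *Psmd4*, a ubiquitin receptor, by 0.42 and 0.47. *Psmd11* (0.28) and *Psmd13* (0.66) rose in KO against WT, did not pass in KI against WT and were higher in KO than in KI cells (0.39 and 0.48), and *Psmd11* lost its call under 9 of 18 alternatives.

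*Psmd6* had the lowest non-ATPase values. It was at 194.1, 155.1, 153.5 and 135.1 CPM in KO, 248.8, 241.5 and 154.2 in WT and 131.8, 139.4, 112.4 and 157.3 in KI libraries, and WT 8 overlapped both lines. It fell in KI against WT with a log2 fold change of -0.67 (SE 0.18, adjusted p = 0.00961, edgeR), and the value of -0.45 in KO against WT did not pass (adjusted p = 0.0558, edgeR). The KI call was lost with library totals (-0.32) and without WT 7. The KO value passed under 9 of 18 alternatives, DESeq2 among them, and was -0.02 with library totals. *Psmd12* was called lower in KO against WT (-0.34, adjusted p = 0.042, edgeR), but its direction turned with scaling by library totals and the call was lost under 7 of 18 alternatives. *Psmd3* and *Psmd8* did not pass in any comparison, and *Psmd8* was the member with the most counts, at a mean of 798.6 CPM in KO, 938.2 in WT and 705.1 in KI cells.

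**Figure D4:**
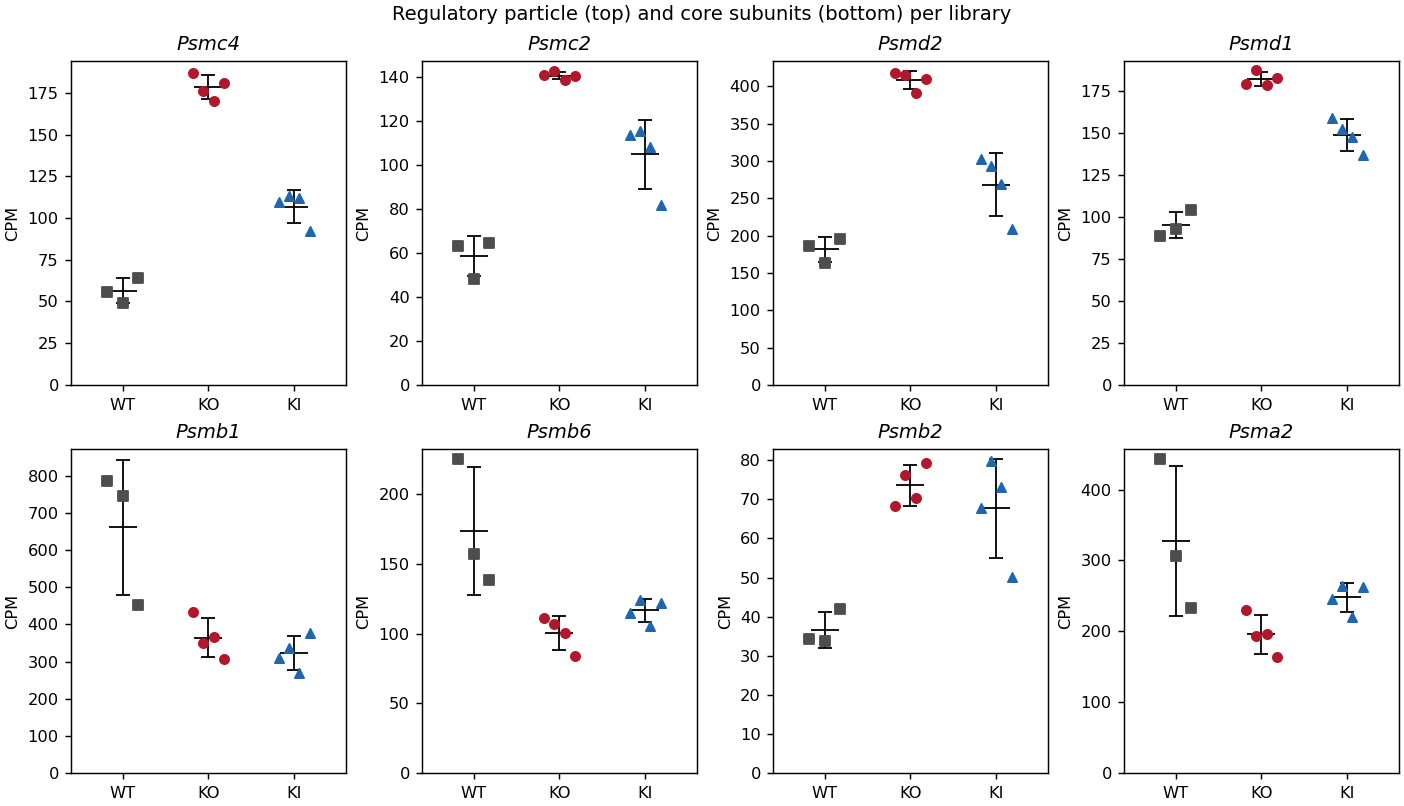
Level in CPM (vertical axes, each from 0) of 4 regulatory particle genes (top) and 4 core genes (bottom) in each WT, KO and KI library (points), with the mean ± SD of each group (bars). In the top row all KO libraries lie above all WT libraries, and in the bottom row *Psmb1*, *Psmb6* and *Psma2* lie lower in KO, with wide spread among the WT libraries, while *Psmb2* lies higher.

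The windows before the starts of *Psmc4*, the regulatory particle gene with the largest rise, and *Psmb6*, a core gene that fell, are set beside each other, written and capitalised as above.
Psmc4 (chr7:28050093-28050342, minus strand): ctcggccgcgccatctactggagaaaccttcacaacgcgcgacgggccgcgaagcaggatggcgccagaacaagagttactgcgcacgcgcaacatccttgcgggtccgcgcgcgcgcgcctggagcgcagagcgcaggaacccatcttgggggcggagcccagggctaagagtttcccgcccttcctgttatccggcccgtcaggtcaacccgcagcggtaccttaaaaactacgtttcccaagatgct
Psmb6 (chr11:70525107-70525356, plus strand): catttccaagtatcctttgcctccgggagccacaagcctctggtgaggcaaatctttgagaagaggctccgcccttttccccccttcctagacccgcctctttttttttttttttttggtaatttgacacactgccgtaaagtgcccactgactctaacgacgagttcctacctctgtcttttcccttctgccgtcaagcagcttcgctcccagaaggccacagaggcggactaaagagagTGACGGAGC
The *Psmc4* window held no match to the 4 motifs, and the *Psmb6* window 1 match to TGANNNNGC that begins 9 bases before the start. RefSeq windows were at hand for 42 of the 49 genes, with 46 windows in all. TGANNNNGC, the letters bound by NRF1 and NRF2, was in 18 of the 46 windows (39.1%) and in 35.2% of the 32851 windows of all genes. CCAAT was in 32.6% and 33.9%, the interferon-stimulated element in 3 windows (6.52%) and 2.98%, and TTCNNNGAA in 2 windows (4.35%) and 7.02%. A match in letters is a description of the window and not a site of binding.

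The assembly chaperones, which help the rings and the base to form, moved in both directions. *Psmd10*, a chaperone of the regulatory particle base, was at 64.35, 56.12, 58.39 and 50.69 CPM in KO, 114.5, 86.35 and 83.14 in WT and 90.29, 92.69, 81.02 and 84.75 in KI libraries. It was below both other groups in every KO library, with a log2 fold change of -0.74 in KO against WT (SE 0.14, adjusted p = 0.00107, edgeR) and -0.12 in KI against WT (adjusted p = 0.531, edgeR). The KO call was lost with library totals (-0.32), where the KI value turned to 0.22. *Psmg3* was at 13.01, 10.93, 10.50 and 11.64 CPM in KO, 7.67, 6.58 and 8.71 in WT and 9.54, 11.44, 7.87 and 14.17 in KI libraries. It rose in KO against WT (0.57, SE 0.16, adjusted p = 0.0123, edgeR), and the KI libraries overlapped WT (0.49, adjusted p = 0.0822, edgeR), with a value that passed with library totals (0.79) and without KI 7.

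*Psmd5*, a second base chaperone, was at 107.4, 112.4, 93.88 and 118.8 CPM in KI, 192.1, 163.1 and 118.5 in WT and 167.2, 125.9, 133.9 and 108.9 in KO libraries. WT 8 was within the KI range, and the log2 fold change was -0.55 in KI against WT (SE 0.17, adjusted p = 0.0178, edgeR) and -0.26 in KO against WT (adjusted p = 0.257, edgeR). The KI call was lost with library totals (-0.20) and without WT 5-6, WT 7 or KI 7, and the KO value turned to 0.18 with library totals. *Psmg2*, which pairs with *Psmg1* on the alpha ring, was at 26.60, 34.24, 29.04 and 19.89 CPM in KI, 23.63, 11.34 and 12.64 in WT and 19.07, 21.71, 18.66 and 17.63 in KO libraries. It rose in KI against WT (0.80, SE 0.25, adjusted p = 0.0218, edgeR), with KI 8 below WT 5-6, and its value of 0.27 in KO against WT did not pass, except with library totals (0.70) and without WT 5-6. The KI call was lost without WT 7, WT 8 or KI 6. *Psmd9* rose in KO against WT (0.48), and *Psmg1* and *Psmg4* did not pass against WT in either line.

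Both genes of the interferon-inducible PA28 cap fell together in both lines. *Psme1* was at 62.50, 53.13, 52.45 and 59.46 CPM in KO, 75.83, 74.81 and 101.8 in WT and 52.14, 58.45, 54.81 and 54.34 in KI libraries, with no overlap with WT. Its log2 fold change was -0.58 in KO (SE 0.14, adjusted p = 0.00417, edgeR) and -0.61 in KI cells (SE 0.14, adjusted p = 0.0039, edgeR). *Psme2*, its partner and close neighbour on chromosome 14, was at 178.4, 122.5, 140.1 and 119.8 CPM in KO, 255.9, 206.1 and 153.2 in WT and 94.71, 119.1, 98.67 and 130.2 in KI libraries, where WT 8 overlapped KO. It fell with -0.57 in KO (SE 0.19, adjusted p = 0.0247, edgeR) and -0.89 in KI cells (SE 0.18, adjusted p = 0.00177, edgeR). The KO calls of both, and the KI call of *Psme1*, were lost with library totals. The KO call of *Psme2* was lost under 6 of 18 alternatives in all, the others leaving out KO 6, KO 7, KO 8, WT 5-6 or WT 7.

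*Psme3*, which forms the nuclear PA28 cap, was at 101.5, 94.18, 98.41 and 98.87 CPM in KI, 64.64, 62.34 and 79.31 in WT and 75.93, 85.46, 82.34 and 86.11 in KO libraries. It rose in KI against WT (0.51, SE 0.13, adjusted p = 0.00745, edgeR), and the KO libraries overlapped WT (0.24, adjusted p = 0.116, edgeR), with a value that passed with library totals (0.64), without WT 8 and with a replicate block. *Psme4*, a cap of another kind, was called lower in KO against WT (-0.34, adjusted p = 0.0261, edgeR), a direction that turned with library totals. *Psmf1*, an inhibitor of the core, was higher in KO than in KI cells (0.46) and did not pass against WT.

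The 3 genes caught by symbol are no subunits. *Psmc3ip*, a partner of recombination enzymes, was at 11.52, 13.12, 10.27 and 15.90 CPM in KI, 7.13, 5.33 and 3.36 in WT and 6.28, 6.04, 5.79 and 6.40 in KO libraries, and its log2 fold change of 1.26 was the highest of the 49 genes in KI against WT (SE 0.25, adjusted p = 0.0015, edgeR). *Psme3ip1* rose there as well (0.59). *Psme2b*, a copy of *Psme2* elsewhere in the genome, fell in both lines (-0.70 and -0.78), and how reads were shared between the copies is not known.

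Of 28 tested genes of the wider pathway, the regulators, ubiquitin genes and proteasome partners that do not carry the symbol, 10 rose and 7 fell in KO against WT and 7 rose and 7 fell in KI against WT. These shares, 35.7% higher in KO against WT and 25% in KI against WT, stood beside 26.7% and 21.2% of all genes. Of all genes, 28.4% and 21.0% were lower in these comparisons. *Adrm1*, the ubiquitin receptor of the regulatory particle, rose in KO (0.72) and not in KI cells (0.15), whereas *Sem1*, its smallest subunit, fell in both (-1.06 and -0.66). *Vcp*, the ATPase that feeds unfolded proteins to the proteasome, rose in both lines (1.28 and 0.83). *Ubqln2*, a shuttle of ubiquitinated proteins, had the highest value in KO against WT (1.34), and *Rps27a*, a fusion gene of ubiquitin and a ribosomal protein, had the lowest in both comparisons (-1.99 and -1.46). *Nfe2l1*, which encodes the factor that raises proteasome genes when activity drops, did not pass in either (-0.06 and 0.12). Of the enzymes that activate that factor, *Ddi2* rose in KO (1.00) and *Ngly1* fell in both lines (-1.01 and -0.92). *Nfe2l2* rose in KO (0.64) and did not pass in KI cells (0.25, adjusted p = 0.136, edgeR). *Pomp*, the maturation factor of the core, did not pass in either (-0.12 and 0.10).

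Single libraries deviated from the others of their group, and most so in the core genes of the WT group. In WT 8, 13 of 14 core genes were below the mean of the other WT libraries, with a median deviation of -0.67 on the log2 scale, whereas 9 of 17 regulatory particle genes were below, with a median of -0.08. WT 5-6 deviated upward, by 0.47 in the core and 0.18 in the regulatory particle, and KO 5 by 0.33 and 0.10. KO 8 and KI 7 deviated downward in the core, with medians of -0.32 and -0.29 and 13 of 14 genes below in each. Over the 48 proteasome genes with a GENCODE length, the rank correlation of transcript length with the deviation ran from -0.28 in KI 8 to 0.30 in KI 7, and over 12354 genes of all kinds from -0.42 in WT 5-6 to 0.36 in KO 8. These are correlations across genes, which share libraries and are not independent.

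**Figure D5:**
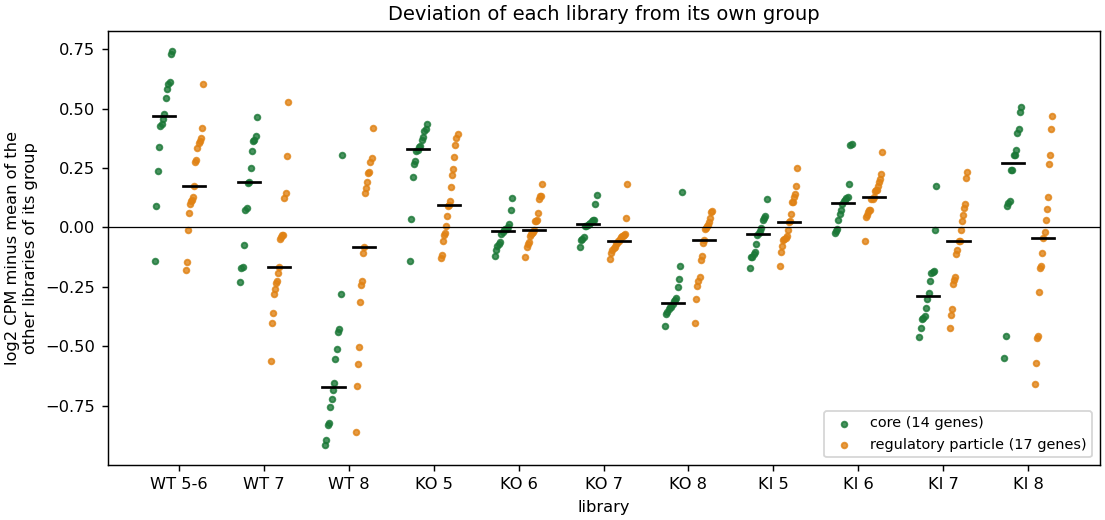
Difference between the log2 CPM of each core gene (green) and regulatory particle gene (orange) in a library and the mean of the other libraries of its group (vertical axis), for the 11 libraries (horizontal axis). Black lines are medians, and the core median is lowest in WT 8, at -0.67, and highest in WT 5-6, at 0.47.

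Transcript length and chromosome were set beside the difference between the particles. The core transcripts had a median length of 1162.5 bases and those of the regulatory particle 1904 bases. Over all 11974 genes with a length, the median log2 fold change in KO against WT was -0.15 in the shortest of 3 equal groups by length, 0.05 in the middle one and 0.13 in the longest, and in KI against WT -0.13, 0.04 and 0.12. Within the core the rank correlation of length with the KO against WT fold change was -0.21 (14 genes) and within the regulatory particle -0.04 (17 genes). By chromosome, genes of chromosome 7, which holds *Psma1*, *Psmc4*, *Psmd8* and *Psmd13*, had a median of 0.53 in KO against WT, and those of chromosomes 11 and 14, which hold 10 and 5 of the proteasome genes, -0.34 and -0.36. Against the median of their own chromosomes, 13 of 17 regulatory particle genes and 4 of 14 core genes lay above it in KO against WT, by medians of 0.41 and -0.24, and 13 and 2 lay above it in KI against WT, by 0.19 and -0.24. The part of length, of single libraries and of chromosomes in the difference between the particles was not tested.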

How the data were processed

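RNA from 11 AML12 libraries was sequenced by the authors, and the deposited table holds raw read counts per gene entry. The submitters' processing notes name HISAT2, TopHat2, Bowtie2 and StringTie without role or version. The counting tool and genome build are not given in the sources used here. The deposited FPKM columns (11) and the authors' DESeq2 comparison columns were not used. Of 26472 lines, 10 were left out, and the counts of entries with the same symbol were summed to 24849 genes. Each pair of groups was fitted alone with edgeR 4.0.16 (R 4.3.3, filterByExpr, TMM, robust quasi-likelihood, prior count 2, Benjamini-Hochberg threshold 0.05). The members, gene lists and tests were chosen with earlier results of these data known. In simulated data for KO against WT (13204 genes), 157 of 197 changed genes were called, all with the right sign, with 9 false calls. Few genes were changed there, equally in both directions, without small changes and without shifts of single libraries. It therefore cannot vouch for small changes, for the scaling or for a comparison in which 55.1% of all genes passed. Libraries were checked for duplicates, and none was found. Values in every library were given for the catalytic, immunoproteasome and PA28 genes and for the highest and lowest fold change of each sub-complex. *Psmc3ip* was added after its values were seen. Replicate numbers were not used to pair the libraries in the main fits. The alternatives were DESeq2 1.42.0, limma-trend (limma 3.58.1), other scalings and filters, all groups in one fit, a replicate block, annotated genes only, leaving out each library and, added after seeing the data, the entry with the most counts per gene and leaving out KI 8 with WT 8. Positions are from GENCODE and promoter windows from RefSeq, both GRCm38. Some genes of the marker and immune lists are not reported here by name.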

Additional observations from a re-analysis of the deposited data

Results flagged for a closer look

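In 4 of 98 sets of 4 libraries, 1 library stood apart from the other 3 by a gap above the critical value of Dixon's criterion, where chance gives about 4.9. *Psmd7* was at 112.9 CPM in KI 6 and 101.4 to 101.9 in the other KI libraries (gap 0.952 of the range). *Psmc5* was at 68.82 CPM in KI 8 and 99.66 to 104.2 in the others (0.872). *Psmd11* was at 66.36 CPM in KI 7 and 71.24 to 72.18 in the others (0.839). *Psme4* was at 115.3 CPM in KO 7 and 103.3 to 105.1 in the other KO libraries (0.847).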

How the results depend on the processing

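Scaling by library totals moved the median log2 fold change of the proteasome genes to 0.618 in KO against WT (all genes 0.377) and 0.342 in KI against WT (all genes 0.303). It moved the log2 ratio of their summed levels from -0.049 to 0.363 in KO against WT and turned it from -0.18 to 0.167 in KI against WT. Leaving out KI 8 and WT 8 together gave a median of -0.115 in KI against WT. Leaving out 1 library at a time gave 19 to 38 calls in KO against WT (38 without WT 8), 17 to 34 in KI against WT (17 without WT 7) and 22 to 33 in KO against KI. The summed ratio then ran from -0.19 to 0.086 in KO against WT, from -0.321 to -0.045 in KI against WT and from 0.067 to 0.179 in KO against KI, the ends against WT being without WT 8 and without WT 5-6. The cause was not tested. Same-numbered libraries had correlations of deviations from -0.19 to 0.214, the highest between KO 8 and WT 8. Rank correlations of transcript length with the deviation over all genes were alike in KO 8 and WT 8 (0.361 and 0.353). They were also alike in KO 5 and WT 5-6 (-0.389 and -0.421), but KI 5 and KI 8 differed from these (0.182 and -0.164). Whether same-numbered libraries were handled together is not stated, and what they share was not tested. The fit with a replicate block called 35, 27 and 22 genes in the 3 comparisons, and 8 core genes fell in it in KO against WT. DESeq2 called 28, 28 and 28, and the fit of all 3 groups 29, 28 and 20. The number of genes called among all genes tested also changed with the setting. In KO against WT it was above the main fit with a replicate block, DESeq2, all 3 groups, or KI 8 and WT 8 left out. It was below the main fit without any 1 KO library. Shares of all genes are not set beside these counts, so their changes cannot be read as particular to the proteasome genes. The spread among the 3 WT libraries limits the precision of every value against WT.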
